A study of Mus musculus with 8 samples.

Results

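Hemoglobin and red cell genes were followed here array by array as a measure of blood in the tissue samples. The list held 8 genes, Hba-a1, Hba-a2, Hbb-b1, Hbb-b2, Alas2, Slc4a1, Epb42 and Ahsp, and every non-control spot whose gene name on the array equals one of them was taken. This gave 8 probes on 35 spots for 7 of the 8 genes, out of 37074 gene names, 56605 probes and 59305 non-control spots on the array. Epb42 had no spot under that name. The array carries its older name, Epb4.2, on 2 probes, which are described apart from the 8. Within that list, the probes were taken by gene name alone.

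The arrays came from male C57BL/6J mice aged 12 weeks, taken 18 h after an intravenous injection of 100 µL. Co mice (n = 4) received saline and Pg mice (n = 4) received sonicated Porphyromonas gingivalis, an oral bacterium linked to periodontitis. The labels print the dose as 108 CFU and the methods give 100000000 CFU. The tissue is labelled as brown adipose tissue (BAT). Ucp1, the uncoupling protein that defines brown adipocytes, was not well above background on any of the 8 arrays, and neither was Elovl3. Of the 10 brown adipocyte genes listed, 7 were above background on all 8 arrays, and so were all 12 skeletal muscle genes. Each array was 1 sample of cRNA from 200 ng of RNA. The labels do not say whether a sample was 1 animal or a pool, so p-values measure the spread between these samples. All arrays lay on 1 slide, with Co in slide row 1 and Pg in slide row 2, so slide row and group cannot be told apart. Pg arrays had 31132 to 34063 probes well above background and Co arrays had 34760 to 35831.

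Hemoglobin is a tetramer of α and β chains, each holding a heme, and fills the red cell. Mature mouse red cells have no nucleus, and the youngest of them in the circulation, the reticulocytes, still carry globin RNA, so a piece of tissue that is not drained of blood brings that RNA with it. Alas2 is the erythroid enzyme for the first step of heme synthesis. Ahsp binds free α chains and keeps them from precipitating. Slc4a1, or band 3, is the anion exchanger of the red cell membrane, and Epb42 is a protein that attaches to it.

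The probe sequences show which of these transcripts the array can tell apart. The α globin genes are read by 3 probes, each printed 10 times on the array. A coding probe of Hba-a1 (A_55_P1962303; mm9 chr11:32183955-32184014, plus strand) is listed in the files for the transcripts of both Hba-a1 and Hba-a2. The 3′ probe of Hba-a1 (A_51_P169730; chr11:32184427-32184486) and the only probe of Hba-a2 (A_55_P1962299; chr11:32197245-32197304) share a run of 59 of their 60 bases and differ by a shift of 1 base. The first 30 bases of these 3′ probes are shown with the shared bases in capitals, below the whole coding probe.
Hba-a1 coding probe: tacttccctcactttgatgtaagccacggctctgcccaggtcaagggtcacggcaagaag
Hba-a1 3′ probe, bases 1 to 30: cTTCTTCTCTCCCTTGCACCTGTACCTCTT
Hba-a2 probe, bases 1 to 30: TTCTTCTCTCCCTTGCACCTGTACCTCTTG
The Hba-a1 and Hba-a2 values are therefore readings of the same transcripts, and neither gene was measured alone.

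The β globin probes had the same limit. The Hbb-b1 probe (A_55_P2108151; mm9 chr7:110976379-110976438, minus strand) ends just past the start codon, in capitals here, and the files list it also for the transcript that RefSeq names Hbb-bs. The Hbb-b2 probe (A_55_P2038540, coding, given no position in the files) is listed also for the Hbb-b1 transcript. C57BL/6J carries the Hbb-bs and Hbb-bt form of the adult β globin locus, so the array names Hbb-b1 and Hbb-b2 are kept only as labels. The Alas2 probe (A_51_P327451; chrX:147004993-147005052) spans the stop codon, in capitals, and the Ahsp probe (A_52_P534583, no position given) lies in the coding sequence.
Hbb-b1 probe, bases 31 to 60: aaccccagaaacagacatcATGgtgcacct
Hbb-b2 probe: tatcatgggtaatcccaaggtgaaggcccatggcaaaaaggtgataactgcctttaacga
Alas2 probe: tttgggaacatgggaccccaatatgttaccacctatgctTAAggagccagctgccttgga
Ahsp probe: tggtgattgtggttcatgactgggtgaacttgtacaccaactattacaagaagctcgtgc
Outside the α globin 3′ probes, the longest run shared by any pair of the 8 probes was 7 bases.

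The member probes rose and fell together from array to array, with Pg replicate 3 lowest for the 7 probes above background on all arrays and the highest levels in Co replicate 3 and Pg replicate 4. Levels are log2 of the quantile-normalized signal, so a step of 1 is a doubling, and they are compared between arrays for the same probe and not between probes. The Hba-a1 3′ probe read 17.59, 18.00, 18.28 and 17.86 in Co replicates 1 to 4. It read 17.35, 17.85, 16.57 and 18.34 in Pg replicates 1 to 4. The lowest and the highest of the 8 arrays were both Pg arrays, and the Co arrays lay between them. The coding probe of Hba-a1 read 16.67, 17.18, 17.56 and 16.98 in Co and 16.37, 16.88, 15.63 and 17.47 in Pg. The Hba-a2 probe read 17.54, 17.98, 18.22 and 17.76 in Co and 17.28, 17.78, 16.53 and 18.22 in Pg. All 3 probes put Pg replicate 3 lowest and Pg replicate 1 next. The Hba-a2 values of Co replicate 3 and Pg replicate 4 are the same because quantile normalization gives probes of equal rank the same value. Before normalization the highest array exceeded the lowest 3.44-fold for the 3′ probe, 3.87-fold for the coding probe and 3.31-fold for the Hba-a2 probe.

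The 10 spots of each α globin probe give the spread between spots of the same hybridization, which leaves out labelling, hybridization and RNA preparation. Within an array, their coefficient of variation was 1.99% to 5.48% for the coding probe, 2.80% to 7.90% for the 3′ probe and 2.26% to 4.41% for the Hba-a2 probe.

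The β globin probes moved the same way over a wider range. Hbb-b1 read 12.91, 13.75, 13.89 and 12.97 in Co and 12.26, 13.14, 11.39 and 13.53 in Pg. Hbb-b2 read 14.25, 14.80, 15.02 and 14.24 in Co and 13.66, 14.24, 12.63 and 14.90 in Pg. Pg replicate 3 was again lowest and Co replicate 3 highest for both. Their highest array exceeded the lowest 5.94-fold and 5.50-fold before normalization.

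Alas2, Slc4a1 and Ahsp are made by the red cell lineage but are not globins. Alas2 read 11.43, 11.99, 12.36 and 11.67 in Co and 10.89, 11.79, 9.87 and 12.38 in Pg. Slc4a1 (A_51_P196972; mm9 chr11:102210256-102210315, minus strand) read 7.59, 7.90, 8.52 and 7.93 in Co and 6.80, 7.76, 6.53 and 8.51 in Pg. Both were lowest in Pg replicate 3 and their levels in Pg replicate 4 and Co replicate 3 were within 0.02 of each other. Ahsp read 5.52, 6.36, 7.15 and 6.40 in Co and 4.63, 6.36, 3.52 and 7.62 in Pg. It was well above background on all 4 Co arrays and on 2 of 4 Pg arrays, so its values in Pg replicates 1 and 3 are at the limit of detection. It passed the filter of at least 4 of 8 arrays through the Co arrays and the high Pg arrays.

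Epb42 could not be followed. Its older name stands on 2 probes (A_52_P73126 and A_55_P1953236), and neither was well above background on any of the 8 arrays. No spot on any array was saturated, so the brightest globin spots were within the scanner's range.

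**Figure D1:**
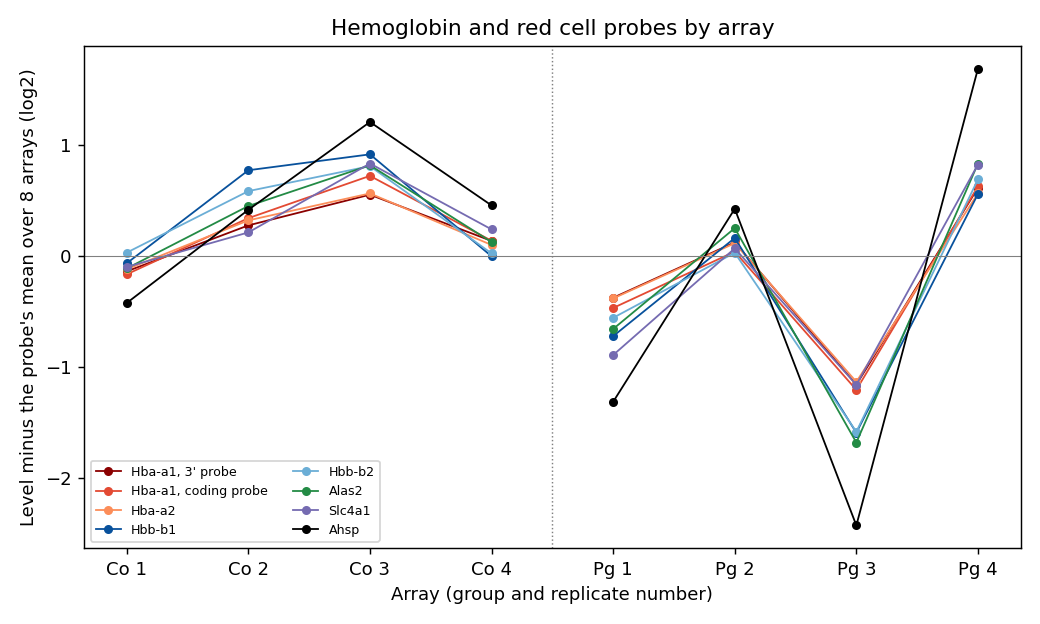
Level of each of the 8 member probes on each of the 8 arrays (4 Co, 4 Pg), minus that probe's mean over the 8 arrays, in log2 units. Each line joins the values of 1 probe within a group and stands for no order of the replicates. The 7 probes above background on all arrays are lowest in Pg replicate 3 and second lowest in Pg replicate 1, which are the arrays on which Ahsp was below background, and Co replicate 3 and Pg replicate 4 are at or near the top.

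No member probe passed the test for a difference between Pg and Co. The mean was lower in Pg for 8 of 8 probes, by 0.41 to 0.80 on the log2 scale for the 7 probes above background on all 8 arrays, and 0 of 8 were called (adjusted p under 0.1 with a change above 1.5-fold, limma with Benjamini-Hochberg adjustment over all 33819 probes tested). The same rule called 1.61% of all probes tested. Adjusted p ran from 0.355 for Hbb-b1 to 0.602 for Ahsp. The difference of Ahsp, -0.82, rests on Pg arrays below background and went to -0.25 with normexp background correction, -0.27 with the median signal, -0.39 in the authors' deposited values. On leaving out 1 array it ran from -1.52 without Pg replicate 4 to -0.15 without Pg replicate 3. No member reached an unadjusted p under 0.05, against 22.8% of all probes tested. The groups overlapped for all 8 members, whereas they did not overlap for 15.8% of all probes tested.

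The Hba-a1 3′ probe was at 17.93 ± 0.29 in Co and 17.53 ± 0.76 in Pg (mean ± SD, n = 4 each), a ratio of Pg to Co of 0.755 with a 95% interval of 0.426 to 1.34. Hba-a2 had a ratio of 0.745, with an interval of 0.428 to 1.30. Hbb-b1, with the lowest adjusted p, was at 13.38 ± 0.51 in Co and 12.58 ± 0.96 in Pg, a ratio of 0.573 with an interval of 0.267 to 1.23. Alas2 had a ratio of 0.645 with an interval of 0.283 to 1.47. The intervals of all 8 probes held a ratio of 1, and each also held a 1.5-fold fall in Pg.

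The size of the difference depended on Pg replicates 3 and 4, while its direction did not. With Pg replicate 3 left out, all 8 probes were still lower in Pg, and their median difference went from -0.61 to -0.19 on the log2 scale, and with Pg replicate 4 left out it went to -0.99. No probe was called under either. Pg replicate 3 also had the fewest probes well above background, 31132, and its part in the result was not tested. The median difference over all 33819 probes was -0.04, and 57.7% of them were lower in Pg.

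**Figure D2:**
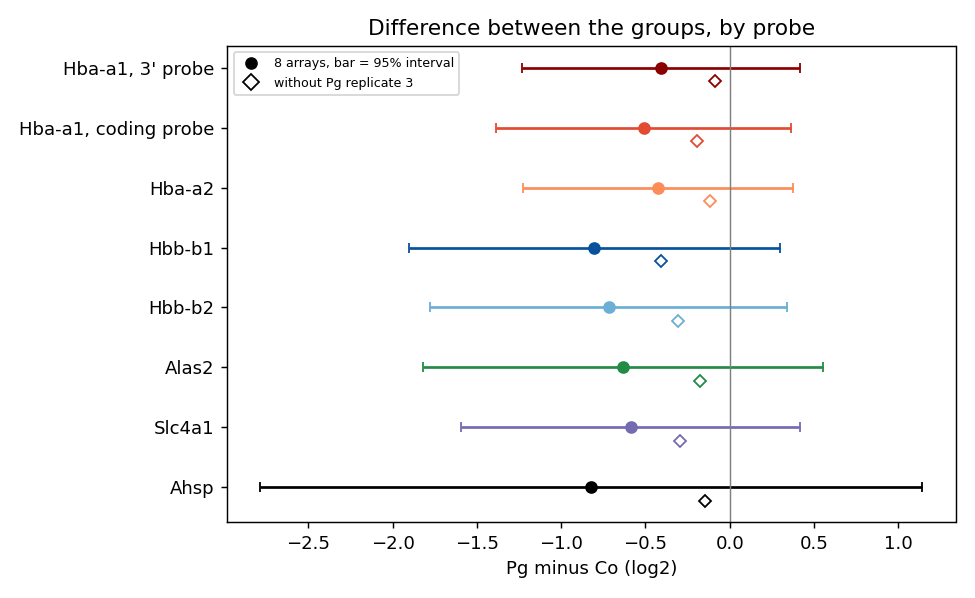
Difference between the group means, Pg minus Co, in log2 units for each member probe. Filled points with bars are the limma estimates over 8 arrays with their 95% intervals, and open diamonds are the estimates without Pg replicate 3. Every interval crosses 0, and every diamond lies closer to 0 than its point.

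The members spread widely within each group. The within-group SD was 0.55 to 0.83 on the log2 scale over the 7 member probes above background on all arrays, against a median of 0.16 over all 33819 probes tested. These 7 stood between the 94.1st and the 97.6th percentile of that spread. The SD computed for Ahsp, 1.37, includes Pg arrays on which it was below background. Over the 7 probes the SD was 0.29 to 0.51 in Co and 0.73 to 1.097 in Pg, and it was wider in Pg for all 7, which share the same arrays and are not separate evidence.

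**Figure D3:**
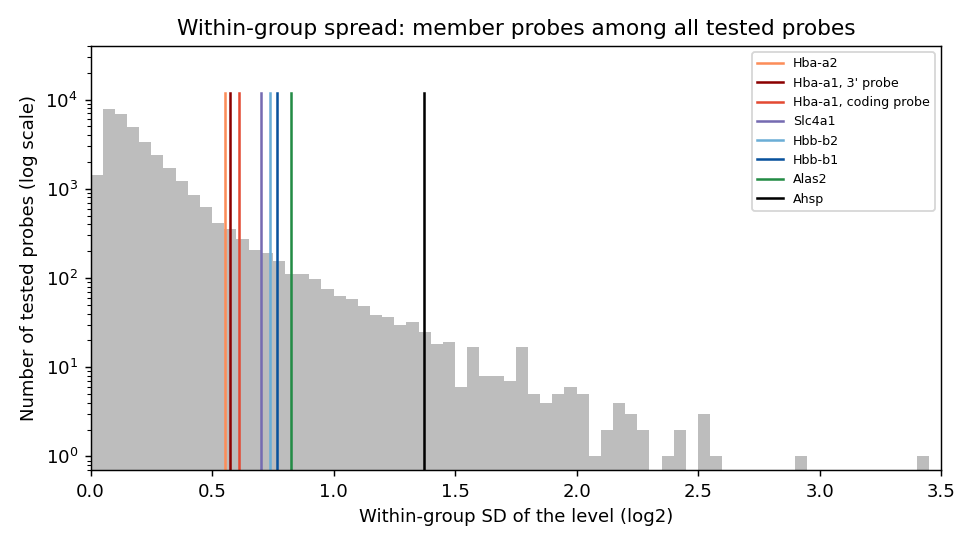
Number of tested probes (log axis) by within-group SD of the level, in log2 units and in bins of 0.05, with the 8 member probes as vertical lines. The member lines stand at 0.55 to 0.83 and, for Ahsp, which was below background on 2 arrays, at 1.37, to the right of the bulk of the probes.

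The members kept nearly the same order of arrays. Pg replicate 3 was the lowest array and Pg replicate 1 the second lowest for the 7 probes above background on all 8 arrays, and these were the arrays on which Ahsp was below background. Co replicate 3 ranked 7 to 8 of 8 throughout, with the tie in Hba-a2, and Pg replicate 4 ranked 6 to 8. Across the 21 pairs of these 7 probes, Pearson's r over the 8 arrays ran from 0.93 to 1.00 with a median of 0.98. Without Pg replicate 3 it ran from 0.89 to 1.00, and within the 4 Co arrays alone from 0.76 to 1.00. These points share arrays and depth, and the α globin probes share sequence, so r is given as a description.

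A globin level was computed for each array as the mean of the 5 α and β globin probes, each centred on its own mean. It was -0.09, 0.46, 0.71 and 0.08 in Co replicates 1 to 4 and -0.50, 0.09, -1.34 and 0.61 in Pg replicates 1 to 4. The highest and lowest arrays were 4.13-fold apart. The mean was 0.29 ± 0.36 in Co and -0.29 ± 0.83 in Pg (SD, n = 4 each). Each column of the slide held 1 Co and 1 Pg array, and Pg minus Co within columns 1 to 4 was -0.41, -0.37, -2.05 and 0.53. The sign thus differed between columns. In a bulk sample, fewer red cells and less globin RNA per red cell cannot be told apart.

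Among 29221 probes above background on all 8 arrays, the 10 genes whose levels were most like the globin level, members left out, were led by Hbb-bt, the second adult β globin gene of this strain (r = 0.994). Hbb-bt read 16.05, 16.55, 16.86 and 16.21 in Co and 15.58, 16.12, 14.52 and 16.95 in Pg. A transcript described in the files as α globin pseudogene 4 (ENSMUST00000128900) was also among the 10, with r = 0.983. Its probe could take up α globin RNA, which was not tested.

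Fam46c, now also called Tent5c, a poly(A) polymerase, had r = 0.991 and a span of 2.26 on the log2 scale. It read 9.66, 10.33, 10.64 and 10.03 in Co and 9.44, 10.12, 8.47 and 10.73 in Pg. Unc93a2, named Gm9992 on the array, had r = 0.987 and the widest span of the 10, 3.05. Pg replicate 3 was the lowest array for all 10.

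Ube2l6, a conjugating enzyme for the ubiquitin-like protein Isg15, had r = 0.980 and Isg20, an exonuclease, r = 0.961. Both are induced by interferon in many cells, and both stand in the list of late red cell genes used here. The Isg20 value comes from 1 of the gene's probes; another Isg20 probe, with a higher mean signal, had r = 0.85. Slc6a20a, a proline transporter, Zdhhc22, a palmitoyl transferase, and Letmd1, a mitochondrial protein, were also among the 10, with r from 0.969 to 0.978. The span of Letmd1 over the arrays was only 0.40 on the log2 scale. None of the 10 was called between Pg and Co, and their adjusted p ran from 0.366 to 0.721.

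Leaving out the arrays farthest from the median globin level, Pg replicate 3 and Co replicate 3, r was 0.86 for Isg20 and 0.92 to 0.99 for the other 9 genes. The 10 were chosen for their r, so these values are a description.

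The wider red cell programme was read from fixed lists of genes, 1 probe a gene. Over all probes tested, 22.8% had an unadjusted p under 0.05 (limma) and 1.61% were called. These shares are the background for the counts of every list below. Of 16 genes listed for late red cells and reticulocytes, 14 were tested and 0 were called, with a median difference of -0.15 on the log2 scale and an unadjusted p under 0.05 for 4 genes. Bpgm, which makes the 2,3-bisphosphoglycerate that loosens oxygen from hemoglobin, was the nearest to a call, lower in Pg by 0.32 with an adjusted p of 0.085 but less than 1.5-fold; it is named after its value was seen. The 13 of them that were above background on all 8 arrays had a median r with the globin level of 0.56, and 4 exceeded 0.8, against a median of 0.05 over all 29221 probes. Ube2l6, Isg20 and Mkrn1 were among the 4. Mkrn1, a ubiquitin ligase singled out after its values were seen, had r = 0.95 and read 10.28, 10.63, 10.87 and 10.46 in Co and 10.16, 10.60, 9.997 and 10.83 in Pg. The 4 list genes with the highest mean signal, Hemgn, Prdx2, Cat and Bnip3l, had r of 0.23, -0.41, 0.34 and 0.69. Prdx2 and Cat remove peroxide in many cell types besides red cells.

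Of 16 genes of heme synthesis and erythroid iron supply, all 16 were tested, 0 were called (2 at an unadjusted p under 0.05), and 8 were higher and 8 lower in Pg. Their median r with the globin level was -0.05. Slc25a37, or mitoferrin-1, which brings iron into the mitochondria of red cell precursors, was the only 1 of them above 0.8 (r = 0.92) and was singled out after its values were seen. It read 10.44, 11.01, 11.40 and 11.11 in Co and 10.17, 10.99, 9.99 and 11.47 in Pg. Alas1, the form of the first heme enzyme that is found in all tissues, had r = -0.49, against 0.995 for the erythroid form Alas2. Without Pg replicate 3 and Co replicate 3, r was 0.01 for Alas1, 0.91 for Slc25a37 and 0.95 for Mkrn1. Alas1 was at 15.04 ± 0.10 in Co and 15.01 ± 0.09 in Pg (SD, n = 4 each). Urod, Tmem14c and Glrx5, the other genes of that list named by mean signal, had r of 0.04, -0.04 and 0.36.

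**Figure D4:**
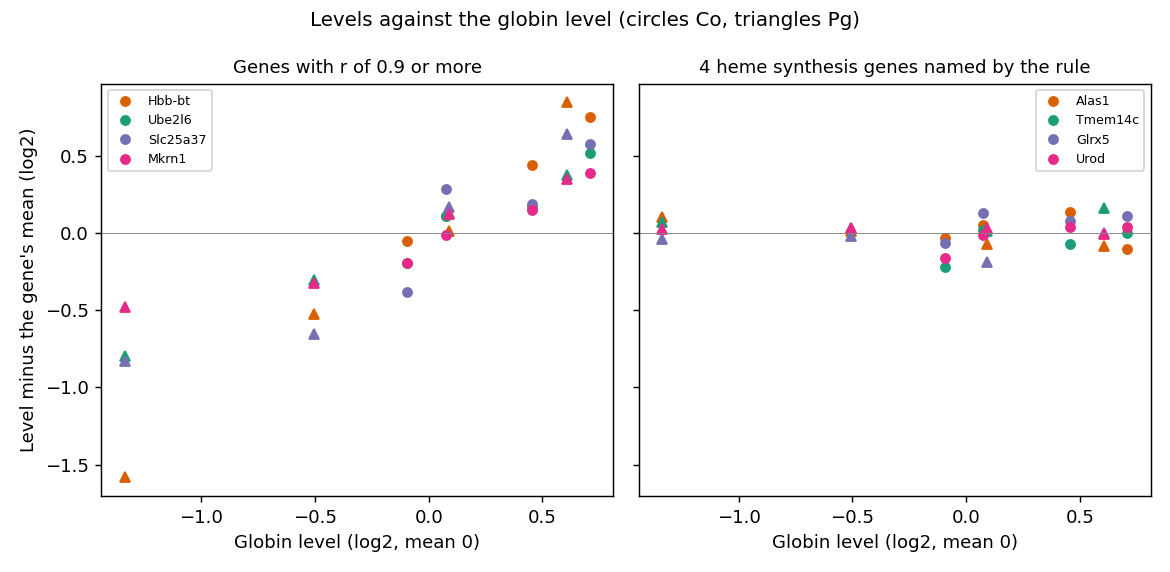
Level of each gene minus its mean over the 8 arrays against the globin level of the array, both in log2 units; circles are Co arrays and triangles are Pg arrays. On the left, Hbb-bt, Ube2l6, Slc25a37 and Mkrn1 rise with the globin level (r from 0.92 to 0.994), and on the right Alas1, Tmem14c, Glrx5 and Urod stay near 0 (r from -0.49 to 0.36).

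Of 23 genes of the red cell membrane and its skeleton, 19 were tested, 0 were called (3 at an unadjusted p under 0.05), and 9 were higher and 10 lower in Pg. The median difference was -0.03, and the 17 genes above background on all arrays had r from -0.59 to 0.66. The genes with the highest mean signal were Aqp1, a water channel also made by endothelium, Ank1, Epb41 and Sptb, and their r was -0.59, -0.03, 0.40 and 0.17. Ank1 and Sptb are also made in skeletal muscle. The more restricted genes Rhag and Slc14a1 were not above background on any array.

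Red cell precursors were looked for through 10 genes, erythroid transcription factors and their cofactors plus Epor, the erythropoietin receptor. Gata1, which drives red cell differentiation, and Nfe2 were not above background on any array. Klf1 was above it on 4 arrays. Its difference, 0.73 on the log2 scale (adjusted p = 0.334, limma), includes arrays on which it was not above background. Of the 6 genes tested 0 were called (2 at an unadjusted p under 0.05), and the 5 above background on all arrays had a median r of -0.18, with Epor highest at 0.66 (0.24 without Pg replicate 3 and Co replicate 3). Zfpm1, Lmo2, Ldb1 and Tal1, named by mean signal, had differences of 0.08 to 0.17 on the log2 scale. The embryonic globin genes gave little signal. Hba-x was not above background on any array, and Hbb-y, Hbb-bh1 and Hbb-bh2 were above it on 1, 2 and 3 arrays.

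Clearance of hemoglobin and heme was read from 14 genes, of which 12 were tested and 0 were called (1 at an unadjusted p under 0.05, Blvra, a biliverdin reductase, lower by 0.22 on the log2 scale with an adjusted p of 0.0714 and less than 1.5-fold, also named after its value was seen). Fth1 and Ftl1, the ferritin chains, differed by -0.05 and 0.14 on the log2 scale. Hp, the plasma binder of free hemoglobin, was at 11.37 ± 0.85 in Co and 11.95 ± 1.72 in Pg (SD, n = 4 each; adjusted p = 0.717, limma). Hp read 14.49 in Pg replicate 1 and 10.76 to 11.54 in the other Pg arrays, so its higher mean in Pg rests on that array. Hmox2, a heme oxygenase, differed by -0.15 with an adjusted p of 0.301 (limma).

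The other cells of blood and tissue were set beside the globin level in the same way. An r was computed only for genes above background on all 8 arrays, which were 5 of 14 platelet, 7 of 14 neutrophil, 6 of 14 lymphocyte, 12 of 12 endothelial, 7 of 10 brown adipocyte, 10 of 10 adipocyte and 12 of 12 skeletal muscle genes listed. None of these had r above 0.8. The median r was 0.27 for the 5 platelet genes, -0.17 for the 7 neutrophil genes and -0.14 for the 6 lymphocyte genes. Pf4, a platelet chemokine, had r = 0.65 over the 8 arrays and r = 0.01 without Pg replicate 3 and Co replicate 3. The mean level of the 7 neutrophil genes, each centred on its mean, was -0.44 to -0.28 in Co and 0.91, 0.70, -0.33 and 0.06 in Pg replicates 1 to 4. S100a8 and S100a9, subunits of calprotectin, were higher in Pg by 2.16 and 2.04 on the log2 scale and were not called (adjusted p = 0.132 and 0.195, limma), whereas the other 5 genes differed by -0.03 to 0.24, so the mean rests on these 2 genes. Its highest array, Pg replicate 1, was the second lowest in globin level. Tested genes numbered 11 platelet, 9 neutrophil, 8 lymphocyte, 12 endothelial, 8 brown adipocyte, 10 adipocyte and 12 skeletal muscle. Over all 33819 probes tested, 1.61% were called. Cd79b, part of the B cell receptor, was the only gene of these lists called, higher in Pg by 1.69 ± 0.44 on the log2 scale (SE; adjusted p = 0.0867, limma), with r = -0.75 with the globin level (-0.49 without Pg replicate 3 and Co replicate 3). The call was made under 7 of 17 alternatives and was lost with the replicate number as a block (adjusted p = 0.144) and on leaving out any array but Pg replicate 4 (adjusted p from 0.112 to 0.169); the adjusted p ran from 0.0573 to 0.169 over all 17.

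**Figure D5:**
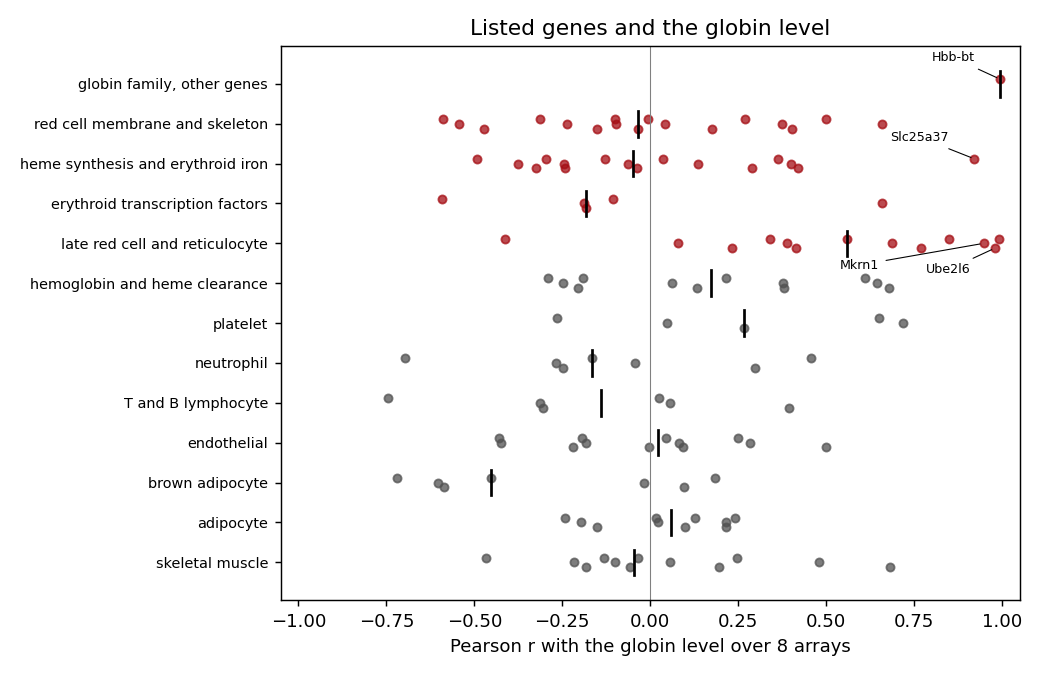
Pearson's r with the globin level over 8 arrays for each listed gene above background on all 8 arrays, by list; vertical bars are the list medians and red points the 5 red cell lists. Hbb-bt, Ube2l6, Slc25a37 and Mkrn1 stand at 0.92 or more, and no plotted gene of the 8 other lists exceeds 0.8.

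The tissue lists were set beside the globin level as well. The 7 brown adipocyte genes had a median r of -0.45, the lowest median among these lists. Their mean level, which spanned 0.20 on the log2 scale, had r = -0.46. Without Pg replicate 3 and Co replicate 3, r of these genes ran from -0.69 for Prdm16 to 0.43 for Cidea. It was then -0.07 for Cox7a1, -0.07 for Dio2 and -0.10 for Ebf2, so the median rests in part on those arrays. The mean level of the 12 skeletal muscle genes spanned 0.96 on the log2 scale over the arrays (r = -0.08), with Pg replicate 1 lowest at -0.67. That span rests on Myh4, Actn3 and Pvalb, with within-group SDs of 2.22, 1.29 and 0.76, and the other 9 muscle genes had SDs of 0.01 to 0.17. The mean level of the 10 adipocyte genes spanned 0.85 (r = 0.08). Cidec, Adipoq, Plin1, Cfd and Retn had within-group SDs of 0.64 to 0.95 and the other 5 adipocyte genes 0.10 to 0.18.

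The promoters of Hba-a1 and Alas2, members that moved together, and of Hbb-bt are shown for the letters they share. RefSeq windows of 250 bases before the gene start (GRCm38.p6) were matched for 4 of the 8 members, Hba-a1, Hba-a2, Alas2 and Epb42. Each was searched on both strands for GATAA, the core bound by GATA factors, CACCC, bound by Krüppel-like factors such as Klf1, TATAA and CCAAT, and matches may overlap. The Hba-a1 and Hba-a2 windows share a run of 247 bases. In Hba-a1 GATAA stood at 182 to 178 bases, CACCC at 167 to 163 and 60 to 56, CCAAT at 88 to 84 and TATAA at 27 to 23 bases before the start. The windows of Hba-a1 (chr11:32283422-32283671, plus strand), Alas2 (chrX:150547167-150547416, plus strand) and Hbb-bt (chr7:103813924-103814173, minus strand), the gene most like the globin level, are given with all matches in capitals.
Hba-a1: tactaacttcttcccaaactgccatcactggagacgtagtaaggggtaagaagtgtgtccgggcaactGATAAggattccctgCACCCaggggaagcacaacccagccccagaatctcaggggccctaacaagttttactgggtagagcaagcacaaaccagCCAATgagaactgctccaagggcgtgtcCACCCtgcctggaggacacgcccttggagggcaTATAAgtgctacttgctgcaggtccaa
Alas2: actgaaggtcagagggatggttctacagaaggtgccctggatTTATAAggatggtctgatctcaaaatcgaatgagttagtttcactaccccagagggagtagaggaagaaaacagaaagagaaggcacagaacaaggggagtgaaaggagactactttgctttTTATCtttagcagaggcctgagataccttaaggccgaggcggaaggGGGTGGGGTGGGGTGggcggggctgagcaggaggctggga
Hbb-bt: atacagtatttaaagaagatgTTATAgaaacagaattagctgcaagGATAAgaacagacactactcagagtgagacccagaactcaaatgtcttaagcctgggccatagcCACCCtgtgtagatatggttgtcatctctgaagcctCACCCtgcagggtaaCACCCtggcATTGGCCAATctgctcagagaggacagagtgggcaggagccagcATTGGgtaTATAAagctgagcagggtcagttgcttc
GATAA was found once in each of the 3 windows, on the opposite strand in Alas2, and CACCC 2 times in Hba-a1 and 3 times in Alas2 and in Hbb-bt. Over all 32851 promoter windows, 22.6% held GATAA, 52% held CACCC, 22.8% held TATAA and 33.8% held CCAAT on either strand. The Epb42 window held 1 GATAA and no CACCC. Of the late red cell genes searched in the same way, the window of Ube2l6 held 2 CACCC and none of the other motifs, and those of Mkrn1 and Isg20 held none of the 4 motifs. A match describes the letters and not a bound site.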

How the data were processed

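The authors hybridized Cy3-labelled cRNA of 4 Co and 4 Pg samples to Agilent 8 x 60 K arrays and extracted spot intensity values with Feature Extraction 11.0.1.1. They also deposited a table of log2 values of the 8 samples (28067 entries), stated to be quantile-normalized. Its fold changes, test statistics and p-values, and its gene annotation, were not used.

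From the deposited intensity (processed signal), outlier spots were removed and spots of a probe averaged. Values were quantile-normalized, floored at 1 and log2-transformed. Probes well above background on at least 4 of 8 arrays were tested with limma 3.58.1 (R 4.3.3) between all 4 Co and 4 Pg arrays, two-sided, with Benjamini-Hochberg adjustment over all 33819, and called at adjusted p under 0.1 and a change above 1.5-fold. The number of arrays limits the precision. Of 56605 probes, 32994 were named by accession through RefSeq and the rest by the array. Listed genes with several probes were read from the probe of highest mean.

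The text names all members, the called genes and up to 4 genes of highest mean in each list, and the 10 genes most like the globin level; some genes these rules name are not reported here. The members and lists were chosen with earlier results of these data known. The fit was tested on simulated data. Alternatives covered background correction, normalization, filter, floor, the authors' values, a replicate block and leaving out each array.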

Additional observations from a re-analysis of the deposited data

Results flagged for a closer look

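In groups of 4 arrays, the highest or lowest array was set against the other 3 for the member probes, the genes most like the globin level, the globin level itself and the genes named in the lists. Of 144 groups checked, 9 held an array whose gap to its nearest neighbour exceeded Dixon's 95% critical value, as a share of the group's range, and chance marks about 1 in 20. None of them was a member probe, and none was the globin level.

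Ldb1, an erythroid cofactor, was at 9.657 on the log2 scale in Pg replicate 2 and at 9.57 in each of the other Pg arrays. Hemgn was at 14.44 in Co replicate 3 against 14.52 to 14.53 in the other Co arrays. Cdh5 and Robo4, both endothelial, were at 11.87 and 12.45 in Co replicate 4, above 11.44 to 11.51 and 12.19 to 12.23 in the other Co arrays. Ppargc1a was at 11.76 in Co replicate 4 against 12.65 to 12.68. Cidec, a lipid droplet protein, was at 12.24 in Co replicate 2 against 10.07 to 10.17. The muscle genes Tnnt3 (18.81 in Co replicate 1), Tnni2 (18.84 in Co replicate 1) and Mb (18.41 in Pg replicate 3) are among the brightest probes, where quantile normalization gives probes of equal rank the same value, and the other 3 arrays of the group were tied.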

How the results depend on the processing

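None of the member probes was called or changed sign under any alternative run. Under all 17 alternatives 6 probes were measured; Ahsp was left out by the filter on all 8 arrays, and the Hba-a1 3′ probe was not among the authors' values. The median difference, -0.61 on the log2 scale, ran from -0.63 to -0.48 over the alternatives other than leaving out an array and from -0.99 (without Pg replicate 4) to -0.19 (without Pg replicate 3) when 1 array was left out. The authors' deposited log2 values held 7 of the 8 probes and gave -0.49, with 0 called. The correlation of same-numbered deviations was 0.06, -0.03, -0.07 and 0.18 for replicate numbers 1 to 4, and exceeded 0.1 for 1 of 4. These few values do not settle whether replicate numbers pair the samples. The replicate number was also the slide column, so a replicate block is a column block as well. With the replicate number as a block, the median difference of the members was -0.61 and 0 of 8 were called, and over all probes limma called 0 of 33819 in place of 546 (7392 in place of 7722 at an unadjusted p under 0.05). Other counts over all probes fell to 94 with normexp background correction, 108 with the median signal, 283 with 75th percentile scaling and 27 without normalization. They were 372 without the filter on dim probes and 318 with probes above background on all 8 arrays. The count was 511 with a floor of 16 and 106 in the authors' values. Leaving out 1 array gave 3 (without Co replicate 3) to 698 (without Pg replicate 3), and the causes were not tested. Ahsp was below background on 2 arrays, and Epb42 on all 8, so signal over background limits both.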

Other observations

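As an alternative chosen after seeing the data, the globin level of each array was added as a covariate beside the group in the fit over all 33819 probes. The number of probes called between Pg and Co went from 546 to 415, of which 253 were called in both fits, with 116 higher and 299 lower in Pg. At an adjusted p under 0.1, 18 probes were associated with the globin level in that fit, among them 7 of the 8 member probes, including all 5 from which the level was computed. Over the 8 arrays, the globin level and the group had a correlation of -0.46, so the terms overlap.

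Trim10, a late erythroid gene named here after its values were seen, was above background on 6 arrays. It read 5.42, 5.10, 5.97 and 5.53 in Co and 4.16, 5.63, 4.24 and 5.99 in Pg. It was low on Pg replicates 1 and 3 and highest on Pg replicate 4, as Ahsp was.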
